A study of Mus musculus with 53 samples.

Results

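Adult mouse hearts that had no surgery were compared with hearts after a sham operation in input RNA, which is the total cytoplasmic RNA of the heart. Genes were kept when they reached 1 RPKM or more in at least 2 of the 4 libraries, where RPKM is a read count divided by transcript length and by library size. Genes of the X and Y chromosomes were left out. This gave 10539 of the 34306 genes in the deposited table. Of the 10858 genes past the level filter, 319 lay on X or Y, and 312 of the genes kept had no chromosome found. The table holds 12 libraries of a series of 53 samples, and the 4 libraries compared stand for 8 of those samples.

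The unoperated group had 1 library from CAG hearts and 1 from Tie2 hearts, and the sham group had 2 libraries from CAG hearts. CAG mice express the ribosome tag used for translating ribosome affinity purification (TRAP) in all lineages, and Tie2 mice switch it on with Tie2-Cre in endothelial cells. In a sham operation the chest was opened and the ascending aorta was freed but not tied. Hearts with a ligature around the aorta (band, 2 CAG libraries) served as a second set of operated hearts. Mice of all groups were adult and carried a tag transgene. Surgery was done on male mice, per the labels' protocols. The sources used here give neither the interval between surgery and harvest nor a sex for the unoperated group. A mixed 129/C57BL background is given for the samples of a first deposit but not for these. RNA was pooled before library preparation, and separate mice are not named for the libraries within a group. The p-values therefore measure the spread between libraries, which may be technical. A level given below for a heart is that of 1 library. Line and surgery are partly confounded, because Tie2 hearts were sampled without surgery only.

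Atrial and ventricular muscle share most of their sarcomere proteins but differ in their myosin light chains, with Myl7 and Myl4 used in adult atria and Myl2 and Myl3 in ventricles. Atrial myocytes also make the hormone ANP from Nppa and secrete it when stretched. Around the base of the heart lie the great vessels, valves, epicardial and pericardial fat, mesothelium and autonomic nerve endings. Hearts and other organs raise secreted acute phase proteins such as lipocalin 2 after injury or inflammation.

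The recovered totals were 26568988 reads for the unoperated CAG library and 50271246 for the Tie2 library, against 48867104 and 33043255 for the sham libraries. The Tie2 library stood apart from the other input libraries. Its mitochondrially encoded messages took 2.88% of reads, against 13.4% in the CAG library, 14.6% and 13.2% in the sham libraries and 13.0% and 15.1% in the band libraries. The unoperated pair differed by a median of 0.241 on the log2 scale per gene, the sham pair by 0.0787 and the band pair by 0.106. The spread between the unoperated hearts therefore includes the line and this library, and values of both are given separately throughout. Markers of heart muscle were present in all 4 libraries. The 25 genes of the working myocyte list summed to 66430 RPKM in the CAG library and 77457 in the Tie2 library, against 66446 and 66027 in the sham libraries.

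Calls required an adjusted p below 0.05 in limma, which was fitted to log2(RPKM + 1) of the 6 input libraries, with Benjamini-Hochberg adjustment over all genes tested. By this rule 127 genes (1.21% of those tested) were higher and 57 (0.541%) were lower in unoperated hearts. Beyond a difference of 1 on the log2 scale, 81 were higher (0.769%) and 24 lower (0.228%). Without adjustment, 2349 genes had a limma p under 0.05. The balance moved with the scaling: quantile normalization gave 164 higher and 121 lower, median of ratios scaling 153 and 107, and leaving out the mitochondrially encoded genes 185 and 156. Leaving out the Tie2 or the CAG library leaves 1 unoperated library, so the spread of the unoperated pair no longer enters the fit. The calls were kept there, but such fits cannot test them against that spread. Calls said below to hold with any of the 4 libraries left out carry the same limit. In all, 639 higher and 581 lower genes were called without the Tie2 library, and 2550 and 1504 without the CAG library. With sham library 1 left out 20 of the 127 and 3 of the 57 were still called, and with sham library 2 left out 21 and 3. Among called genes the largest differences were those of the atrial genes Myl7, Sln and Myl4 on the higher side. On the lower side they were those of the acute phase genes Lcn2 and Serpina3n.

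**Figure D1:**
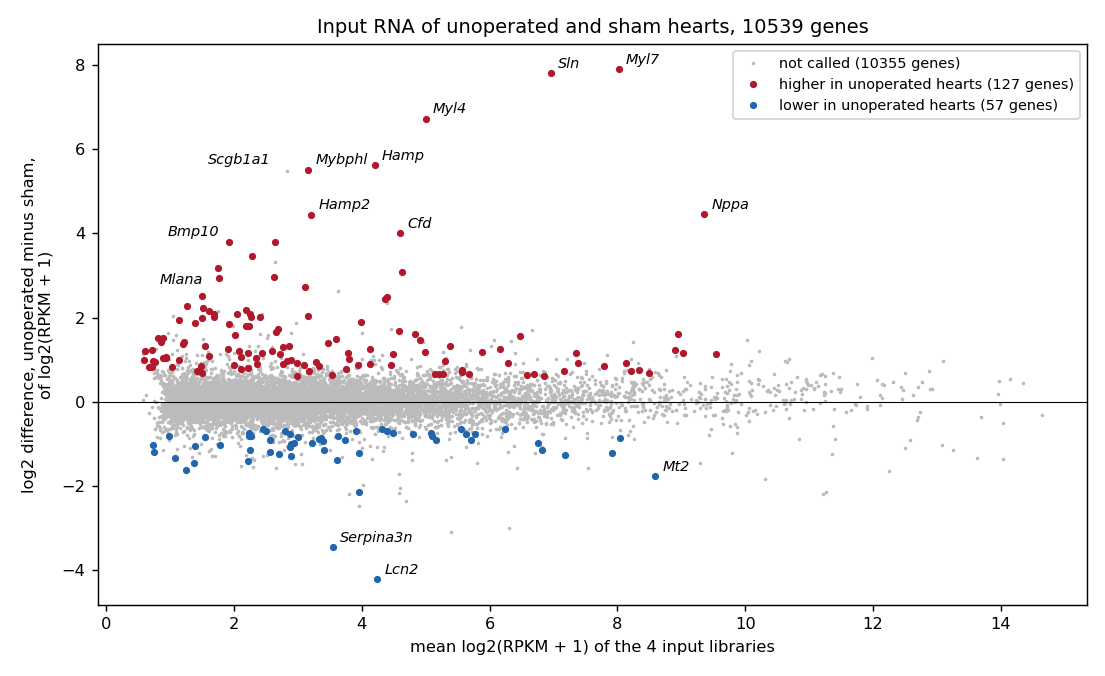
Difference between unoperated and sham input RNA for each of 10539 genes, as unoperated minus sham in log2(RPKM + 1), against the mean of log2(RPKM + 1) over the 4 input libraries. Red points are the 127 genes called higher in unoperated hearts, blue points the 57 called lower and grey points the rest. Myl7 and Sln stand highest, at 7.90 and 7.81, and Lcn2 lowest, at -4.22.

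Atrial genes separated the unoperated from the sham hearts most widely. Of 17 genes on the atrial myocyte list, 15 passed the level filter, and 9 of these were called higher and 0 lower, where 1.21% of all genes tested were called higher. Of these 9, 4 (Bmp10, Mybphl, Gm1078 and Dkk3) were under 1 RPKM in both sham libraries and so passed the filter only through the unoperated group, as did 34 of the 127 genes called higher over all. The list's count and median are therefore descriptions, as they are for the lists that follow. Their median difference was 3.46 on the log2 scale, against 0.04 for all genes tested, and it was 3.33 in the CAG heart and 3.60 in the Tie2 heart. In bulk RNA, fewer cells of a type and less RNA per cell cannot be told apart. Nor can surgery be told apart here from a difference in which parts of the heart were taken for each group.

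Myl7 (ENSMUST00000102921, chromosome 11), the regulatory light chain of atrial myosin, stood at 2724 RPKM in the CAG heart and 5867 in the Tie2 heart without surgery, against 15.4 and 16.1 in the sham hearts. Its mean was 4295 ± 2222 RPKM in unoperated hearts and 15.8 ± 0.475 in sham hearts (SD, n = 2 libraries each), a 272-fold higher level. In limma the difference was 7.90 ± 0.412 on the log2(RPKM + 1) scale (SE, adjusted p = 0.000827). Myl7 was thus the gene with the widest gap on this scale, though not by the ratio of means, which was larger for Bmp10. It was still detected in every sham library, where 445 and 314 reads carried Myl7.

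Myl4 (ENSMUST00000155271, chromosome 11), the essential light chain of atrial myosin, had 279.8 RPKM in the CAG heart and 383 in the Tie2 heart, against 2.18 and 2.03 in sham hearts. Its mean level was 157-fold higher without surgery (difference 6.72 ± 0.255, limma adjusted p = 0.000219). Sln encodes sarcolipin, a small membrane peptide that inhibits the calcium pump of the sarcoplasmic reticulum. Its levels were 1622 and 2135 RPKM in unoperated CAG and Tie2 hearts, against 5.96 and 8.93 in sham hearts, a 252-fold difference of means (limma adjusted p = 0.000219). Both genes showed no overlap between the groups, as did all 127 genes called higher, and small differences within them.

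Nppa, the precursor of the hormone ANP, was abundant on both sides of the comparison. It had 2808 RPKM in the CAG heart and 3374 in the Tie2 heart without surgery, against 139.6 and 138 in sham hearts, a 22.3-fold difference of means (4.46 ± 0.263 on the log2 scale, limma adjusted p = 0.00135). In band hearts it stood at 261 and 459 RPKM, between the other groups. Of the 5 markers given with the comparison it had the highest level in sham hearts.

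Bmp10, a secreted BMP ligand made in adult heart mainly by the right atrium, was the marker closest to absent in sham hearts. It had 11.4 and 15.1 RPKM in unoperated CAG and Tie2 hearts, against 0 and 0.0230 in sham hearts and 0 in both band hearts. In reads this was 1397 over both unoperated libraries and 1 over both sham libraries, a ratio scaled to library reads of 1489 with a 95% exact interval of 267 to 58860 that covers counting error only. Its difference on the log2(RPKM + 1) scale was 3.80 ± 0.146 (limma adjusted p = 0.000219), a scale that understates changes from levels this low.

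Further atrial genes on the list behaved alike. Mybphl, a myosin binding protein of atrial sarcomeres, had 50.3 and 70.1 RPKM in unoperated CAG and Tie2 hearts, against 0.257 and 0.380 in sham hearts (5.52 ± 0.177, limma adjusted p = 0.000219). The kinase gene Gm1078, which RefSeq lists as a synonym of Sbk3, had 20.4 and 24.1 RPKM in unoperated hearts, against 0.636 and 0.730 in sham hearts (3.79 ± 0.125, limma adjusted p = 0.000219). Dkk3, a secreted glycoprotein of the dickkopf family, had 13.7 and 16.7 RPKM in unoperated hearts, against 0.555 and 0.379 in sham hearts (3.46 ± 0.135, limma adjusted p = 0.000219). All 3 kept their calls whichever of the 4 libraries was left out, as did the 5 markers. Sbk2, a related kinase named here after its values were seen, had 5.06 and 7.54 RPKM, against 1.22 and 0.771 in sham hearts. Its call (limma adjusted p = 0.0146) was lost without either sham library, at adjusted p of 0.0893 without the first and 0.147 without the second.

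Not every gene tied to atrial identity differed. The list members tested but not called were Nr2f2, Kcna5, Kcnj3, Kcnj5, Hey1 and Gja5. Nr2f2, a nuclear receptor that sets atrial identity in the embryo, had 2.46 and 3.10 RPKM in unoperated hearts, against 1.94 and 1.78 in sham hearts (limma adjusted p = 0.155). Kcnj3 and Kcnj5 encode the channel subunits opened by acetylcholine in atrial muscle. Kcnj5 had 13.7 and 11.4 RPKM in unoperated hearts, against 12.6 and 12.3 in sham hearts (limma adjusted p = 0.978). Kcnj3 had 7.87 RPKM in the CAG heart and 0.469 in the Tie2 heart, on either side of the 2.24 and 2.04 of the sham hearts (limma adjusted p = 0.896). Nr2f1 did not reach the level filter. Summed over the 17 genes the atrial list came to 7569 RPKM in the CAG heart and 11923 in the Tie2 heart, against 192.6 and 193.6 in sham hearts and 324 and 504 in band hearts.

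**Figure D2:**
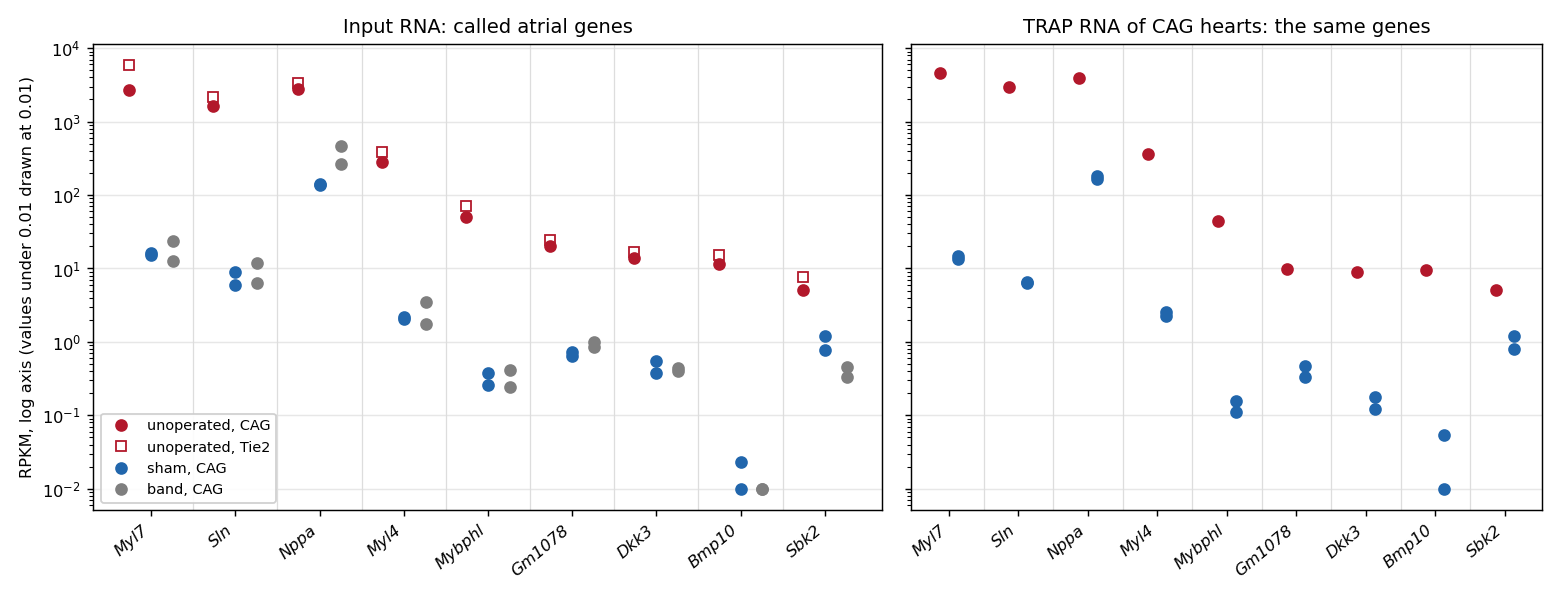
Levels of the 9 called atrial genes in RPKM on a log axis, 1 point for each library, in input RNA on the left and in TRAP RNA of CAG hearts on the right. Red marks unoperated hearts (filled circle CAG, open square Tie2), blue sham and grey band hearts, and values under 0.01 are drawn at 0.01. Every unoperated point lies above every sham point of its gene, which in input RNA held for all 127 genes called higher. Bmp10 lies at 0 in 1 sham and both band libraries of input RNA.

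Upstream sequences are shown for the markers because these genes moved together, and for the largest falls described further on. RefSeq promoter windows (GRCm38.p6) matched 6 of the 7 genes looked up, with Sln unmatched. Each line gives the 250 bases before the annotated start, 5′ to 3′ on the gene's strand. In the first 4, capitals mark matches on either strand to GATAA (bound by GATA factors), AAGTG (the core bound by NKX2-5) and AGGTGT (bound by T-box factors), and to the CArG box bound by serum response factor.
Myl7, chr11:5898783-5899032, minus strand: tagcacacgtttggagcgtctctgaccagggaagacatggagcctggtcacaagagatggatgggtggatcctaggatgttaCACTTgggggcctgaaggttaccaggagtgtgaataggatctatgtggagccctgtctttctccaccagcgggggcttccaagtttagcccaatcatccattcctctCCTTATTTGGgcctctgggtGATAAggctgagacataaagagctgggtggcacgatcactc
Myl4, chr11:104550413-104550662, plus strand: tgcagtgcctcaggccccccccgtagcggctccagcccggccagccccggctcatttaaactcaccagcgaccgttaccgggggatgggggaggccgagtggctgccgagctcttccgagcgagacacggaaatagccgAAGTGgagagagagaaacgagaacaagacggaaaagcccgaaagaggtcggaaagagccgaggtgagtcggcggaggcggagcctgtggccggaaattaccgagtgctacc
Bmp10, chr6:87428744-87428993, plus strand: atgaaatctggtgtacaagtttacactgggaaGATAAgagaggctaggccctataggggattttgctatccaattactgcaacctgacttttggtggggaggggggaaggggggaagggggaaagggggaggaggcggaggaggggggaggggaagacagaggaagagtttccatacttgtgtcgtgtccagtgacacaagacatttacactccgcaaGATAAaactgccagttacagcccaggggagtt
Nppa, chr4:148000472-148000721, plus strand: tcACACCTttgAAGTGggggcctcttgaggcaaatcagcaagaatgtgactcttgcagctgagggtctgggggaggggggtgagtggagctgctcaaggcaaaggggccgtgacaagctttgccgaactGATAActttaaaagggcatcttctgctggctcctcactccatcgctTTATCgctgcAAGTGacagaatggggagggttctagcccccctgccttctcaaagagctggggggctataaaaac
Among all 32851 listed windows of the same length, 22.6% hold GATAA, 40.7% AAGTG, 11.8% AGGTGT and 1.47% a CArG box. The Myl7 window holds 1 GATAA, 1 AAGTG and 1 CArG box, the last starting 61 bases before the start. The Nppa window holds 2 GATAA, 2 AAGTG and 1 AGGTGT matches. The Bmp10 window holds 2 GATAA matches and none of the other motifs, and the Myl4 window holds 1 AAGTG match only. No motif was present in all 4. A match is a description of letters and not of binding.

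Genes that mark ventricular muscle had no calls. Of 9 ventricular genes tested, 0 were called by limma, and 3 had an unadjusted p under 0.05. Myl2, the ventricular regulatory light chain, had 16958 RPKM in the CAG heart and 28102 in the Tie2 heart, against 14924 and 15143 in sham hearts (limma adjusted p = 0.261). On this list 4 genes lay below both sham hearts in both unoperated hearts, where 22.4% of all genes tested did. Only 1, Myl2, lay above, where 30.6% of all genes did. Of the 25 working myocyte genes 0 were called by limma, and 2 had an unadjusted p under 0.05. Of 4 sinoatrial node and conduction genes tested, 0 were called and 1 had an unadjusted limma p under 0.05, and 11 further members stayed under the filter.

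Fat genes were the next group. On the white adipocyte list 7 of 11 genes tested were called higher and 0 lower, beside 1.21% of all genes called higher, with a median difference of 1.41 (1.59 in the CAG heart, 1.33 in the Tie2 heart). Cfd, the serum protease adipsin, had 99.3 and 92.8 RPKM in unoperated CAG and Tie2 hearts, against 5.21 and 4.82 in sham hearts, a 19.2-fold difference of means (4.01 ± 0.172, limma adjusted p = 0.000298). Retn, the hormone resistin, had 8.80 and 7.96 RPKM in unoperated hearts, against 0.311 and 0.135 in sham hearts (2.94 ± 0.125, limma adjusted p = 0.000298). Of the 7, 5 (Retn, Cidec, Adipoq, Plin1 and Nnat) were under 1 RPKM in both sham libraries and passed the filter only through the unoperated group. Cfd and Retn were close between the unoperated hearts of different lines, and both calls held with any of the 4 libraries left out.

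Car3, a carbonic anhydrase of fat and muscle, had 18.8 and 14.0 RPKM in unoperated hearts, against 1.48 and 0.964 in sham hearts (limma adjusted p = 0.0102). Cidec, a lipid droplet protein, had 5.80 and 4.59 RPKM, against 0.297 and 0.317 in sham hearts (limma adjusted p = 0.00565). The other called members, named after their values were seen, were Adipoq, Plin1 and Nnat, of which Adipoq (adiponectin) had 6.35 and 4.65 RPKM, against 0.475 and 0.398 in sham hearts (limma adjusted p = 0.00409). Calls of these 5 genes were lost without either sham library, at adjusted p of 0.0578 to 0.124 without the first and 0.0595 to 0.173 without the second. Genes that fat shares with other heart cells, Fabp4, Lipe, Pparg and Acsl1, were not called. Fabp4, carried by capillary endothelium as well, had 995 and 1219 RPKM in unoperated hearts, against 757 and 836 in sham hearts.

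On the brown adipocyte list 0 of 6 genes tested were called by limma, and 4 had an unadjusted p under 0.05. Their median difference was -0.35, below the 0.04 of all genes. The defining gene Ucp1, an uncoupling protein of brown fat mitochondria, stayed under the filter with 1.81 and 0.980 RPKM in unoperated hearts, against 0.0124 and 0.0184 in sham hearts, and was therefore not tested. The other tested members, such as Cox8b and Cox7a1, are made by heart muscle too.

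Hamp and Hamp2 stood beside the atrial genes in size. Hamp encodes hepcidin, the peptide hormone that controls iron export, best known from liver. It had 117 and 141 RPKM in unoperated CAG and Tie2 hearts, against 1.62 and 1.62 in sham hearts, a 79.5-fold difference of means (5.62 ± 0.221, limma adjusted p = 0.000219). Its close copy Hamp2 had 38.0 and 46.7 RPKM, against 0.983 and 0.970 in sham hearts (4.45 ± 0.156, limma adjusted p = 0.000219). Hamp2 was thus under 1 RPKM in both sham libraries and passed the filter only through the unoperated group. How the authors' counting treated reads that fit both copies was not tested, so the levels of both genes are uncertain. Both calls held with any of the 4 libraries left out.

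Single genes known from other tissues followed, and which cells made them here was not tested. Mlana, a melanosome protein of pigment cells, had 7.67 and 10.7 RPKM in unoperated hearts, against 0.0328 and 0.194 in sham hearts (3.18 ± 0.171, limma adjusted p = 0.000854). Npy, a peptide that sympathetic nerves release with noradrenaline, had 4.99 and 6.61 RPKM, against 0.145 and 0.214 in sham hearts (2.52 ± 0.153, limma adjusted p = 0.00149). Mlana and Npy were under 1 RPKM in both sham libraries and passed the filter only through the unoperated group. Both calls held with any of the 4 libraries left out. Mt3, a metallothionein best known from brain, had 43.2 RPKM in the CAG heart and 114 in the Tie2 heart, against 7.26 and 7.71 in sham hearts (limma adjusted p = 0.0264). The call of Mt3 was lost without either sham library, at adjusted p of 0.213 and 0.198. Npy was the only gene called of 4 tested on the autonomic neuron list, where 1.21% of all genes were called higher. On this list the noradrenaline enzyme Dbh had 2.11 and 8.47 RPKM, against 1.395 and 1.76 in sham hearts.

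Mesothelial, valve, endocardial and elastic matrix lists held 1 to 3 called genes each, where 1.21% of all genes were called higher. Of 9 epicardial and mesothelial genes tested 2 were called higher. Upk3b, a uroplakin of mesothelial surfaces, had 10.97 and 8.48 RPKM in unoperated hearts, against 1.74 and 1.52 in sham hearts (2.02 ± 0.142, limma adjusted p = 0.00333). Rspo1, a secreted activator of Wnt signalling, had 1.58 and 1.71 RPKM, against 0.402 and 0.198 in sham hearts (limma adjusted p = 0.0255). The general mesothelial marker Msln was not called, at 3.29 and 5.43 RPKM in unoperated hearts, against 2.41 and 2.51 in sham hearts.

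Of 11 valve and tendon matrix genes tested 3 were called higher. Comp, a cartilage and tendon matrix protein, had 7.17 and 10.5 RPKM in unoperated hearts, against 1.18 and 1.09 in sham hearts (limma adjusted p = 0.00916). Fmod, a collagen binding proteoglycan, had 4.37 and 7.27 RPKM, against 0.544 and 0.582 in sham hearts (limma adjusted p = 0.0119). Cytl1, a small secreted protein, had 16.0 and 18.3 RPKM, against 5.38 and 6.34 in sham hearts (limma adjusted p = 0.0120). Cytl1 is also on the endocardial and venous endothelial list, where it was called higher with Npr3 and Vwf, 3 of 10 genes tested. Vwf, the clotting factor that large vessel and endocardial endothelium stores, had 7.25 and 9.45 RPKM, against 4.14 and 3.80 in sham hearts (limma adjusted p = 0.0406). Npr3, the clearance receptor of natriuretic peptides, had 2.56 and 2.29 RPKM, against 1.08 and 1.07 in sham hearts (limma adjusted p = 0.0313). On the elastic matrix list 1 of 6 was called, the microfibril protein Mfap4, with 40.3 and 58.1 RPKM, against 15.1 and 15.5 in sham hearts (limma adjusted p = 0.0278).

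On the retinoic acid list 2 of 13 genes tested were called higher, beside 1.21% of all genes. Rbp4, the carrier of retinol in plasma, had 3.21 and 2.22 RPKM in unoperated hearts, against 0.296 and 0.584 in sham hearts (limma adjusted p = 0.0224). Rbp4, like Rspo1 and Fmod above, was under 1 RPKM in both sham libraries and passed the filter only through the unoperated group. The synthesizing enzyme Aldh1a2 was not called, with 2.33 and 2.25 RPKM, against 2.02 and 2.09. Among the genes of the mesothelial, valve, endothelial, elastic and retinoid lists named above, every call was lost without sham library 2, at adjusted p of 0.0514 to 0.350. Without sham library 1 the call of Upk3b held (adjusted p = 0.0425) and the rest were lost, at 0.0923 to 0.320.

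Airway and smooth muscle genes differed between the unoperated hearts themselves. Scgb1a1, the secretoglobin of airway club cells, had 14.8 RPKM in the CAG heart and 142 in the Tie2 heart, against 0.129 and 0 in sham hearts, and missed the call (limma adjusted p = 0.0510). Sftpc, a surfactant protein of lung alveoli, had 0.187 RPKM in the CAG heart and 18.6 in the Tie2 heart, was listed at 0 in both sham hearts, and did not pass the filter. The genes of this and the next paragraph were named after their values were seen. Of 14 lung epithelium genes 3 passed the filter, of which limma called 0 and gave 2 an unadjusted p under 0.05. Over all 10539 genes tested 2349 had such a p. Of the 3 lung genes, 2 were under 1 RPKM in both sham libraries and passed the filter only through the unoperated group. Summed over the list the level was 19.3 RPKM in the CAG heart and 191 in the Tie2 heart, against 1.62 and 1.53 in sham hearts.

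On the vascular smooth muscle list 0 of 11 genes tested were called by limma and 9 had an unadjusted p under 0.05. In this list 3 genes were under 1 RPKM in both sham libraries and passed the filter only through the unoperated group, which fixed their order. With these included, 9 genes lay above both sham hearts in both unoperated hearts and 2 lay below. Over all genes tested 30.6% lay above in that way and 22.4% below. The 2 were Des and Casq1, which striated muscle also makes, and Des had 527 and 608 RPKM in unoperated hearts, against 899 and 866 in sham hearts. The list sum was 801 RPKM in the CAG heart and 963 in the Tie2 heart, against 1122 and 1096 in sham hearts. Cnn1, the smooth muscle calponin, had 3.58 RPKM in the CAG heart and 10.1 in the Tie2 heart, against 0.579 and 0.613 in sham hearts (limma adjusted p = 0.0628). Tagln, an actin binding protein of smooth muscle, had 24.3 and 61.7 RPKM in those hearts, against 11.3 and 10.8 in sham hearts (limma adjusted p = 0.0894). The elastin gene Eln had 12.9 RPKM in the CAG heart and 53.1 in the Tie2 heart, on either side of the 17.2 and 17.7 of the sham hearts. The part of airway or vessel tissue in the other results of the Tie2 library was not tested. Of 14 thymus and T cell genes none passed the filter.

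**Figure D3:**
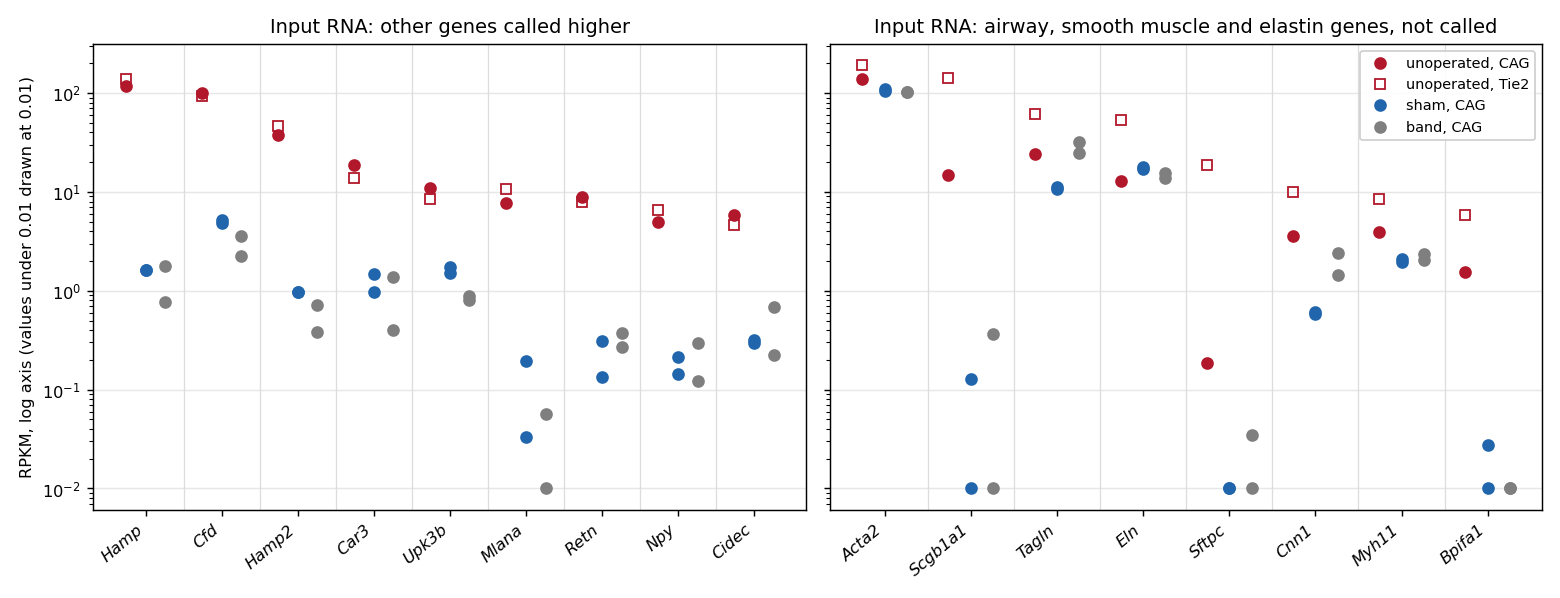
Input RNA levels in RPKM on a log axis, 1 point for each library, for genes outside the atrial list. The left panel holds genes called higher in unoperated hearts and the right panel airway, smooth muscle and elastin genes that were not called, with unoperated hearts in red (filled circle CAG, open square Tie2), sham in blue and band in grey, and values under 0.01 drawn at 0.01. Cfd is close between the unoperated hearts, at 99.3 and 92.8 RPKM, whereas Scgb1a1 has 14.8 in the CAG and 142 in the Tie2 heart.

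The lower side of the comparison was led by the acute phase genes Lcn2 and Serpina3n. Of 10 acute phase and inflammation genes tested, 3 were called lower in unoperated hearts and 0 higher, against 0.541% of all genes called lower. These were Lcn2, Serpina3n and Saa3, whereas the median over the list lay near 0. Against band hearts, 6 genes of the list were called lower, where 1.7% of all genes were, and the list median was -1.86.

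Lcn2 encodes lipocalin 2, a secreted protein that binds bacterial iron carriers. It had 3.78 RPKM in the CAG heart and 2.997 in the Tie2 heart without surgery, against 81.0 and 80.2 in sham hearts and 120.1 and 105 in band hearts. Sham levels were 23.8-fold those of unoperated hearts by their means (-4.22 ± 0.129 on the log2 scale, limma adjusted p = 0.000219). The groups were far apart, and the call held with any of the 4 libraries left out.

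Serpina3n, a secreted inhibitor of serine proteases, had 3.67 and 1.67 RPKM in unoperated CAG and Tie2 hearts, against 38.0 and 37.5 in sham hearts and 82.4 and 79.5 in band hearts (-3.46 ± 0.248, limma adjusted p = 0.00344). The serpin cluster holds close copies, so some reads may belong to its neighbours. Saa3, a serum amyloid A protein, had 0.567 and 0.187 RPKM in unoperated hearts, against 3.58 and 2.79 in sham hearts and 23.4 and 18.1 in band hearts (-1.61 ± 0.197, limma adjusted p = 0.0217). In reads Saa3 had 8 and 5 in the unoperated and 93 and 49 in the sham libraries. All 3 genes thus ran in the same order, lowest without surgery and highest after banding. The call of Serpina3n held without any 1 of the 4 libraries, and that of Saa3 was lost without either sham library (adjusted p = 0.205 and 0.147).

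Related genes missed the call. The granulocyte protein gene S100a8 lay below both sham hearts in both unoperated hearts, with 0.864 and 2.44 RPKM in unoperated hearts, against 6.995 and 5.64 in sham hearts (limma adjusted p = 0.0829). S100a9 had 5.08 and 27.3 RPKM, against 10.7 and 7.52 in sham hearts. The chemokine gene Ccl2 had 2.88 and 2.09 RPKM in unoperated hearts, against 2.02 and 1.88 in sham hearts (limma adjusted p = 0.402), and 15.9 and 13.5 in band hearts. On the granulocyte list 1 of 4 genes tested was called lower, beside 0.541% of all genes, and it was Lcn2 itself. Of 17 macrophage genes tested limma called 0 against sham hearts and gave 4 an unadjusted p under 0.05. In this list 8 genes lay below both sham hearts in both unoperated hearts, where 22.4% of all genes showed that order.

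Upstream windows of the largest falls come from the same RefSeq table (GRCm38.p6). In these lines capitals mark matches on either strand to TTGCNNAA (bound by C/EBP factors), TTCNNNGAA (bound by STAT factors) and the NF-kappaB motif.
Lcn2, chr2:32387740-32387989, minus strand: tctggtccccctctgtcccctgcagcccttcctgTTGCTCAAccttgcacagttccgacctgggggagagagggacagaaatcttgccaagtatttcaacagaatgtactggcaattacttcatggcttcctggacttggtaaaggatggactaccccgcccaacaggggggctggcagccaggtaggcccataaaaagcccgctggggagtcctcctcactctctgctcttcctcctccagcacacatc
Serpina3n, chr12:104406458-104406707, plus strand: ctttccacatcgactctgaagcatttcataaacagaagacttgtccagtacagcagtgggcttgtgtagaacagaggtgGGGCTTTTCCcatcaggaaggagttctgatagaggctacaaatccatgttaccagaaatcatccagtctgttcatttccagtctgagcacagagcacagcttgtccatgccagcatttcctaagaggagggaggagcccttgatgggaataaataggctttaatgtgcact
The Lcn2 window holds 1 C/EBP match, a motif found in 9.56% of all listed windows. The Serpina3n window holds 1 NF-kappaB match, found in 1.41% of all listed windows. The STAT letters, found in 7.02% of windows, are in neither. As above, letters alone say nothing of binding.

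Further genes called lower had diverse roles. Mt2, a metal binding protein induced by glucocorticoids and zinc, had 250.4 and 173 RPKM in unoperated CAG and Tie2 hearts, against 685 and 736 in sham hearts and 1698 and 1418 in band hearts (-1.77 ± 0.199, limma adjusted p = 0.0176). Its neighbour Mt1 was not called, with 1539 and 1344 RPKM, against 1813 and 1944 in sham hearts. On the glucocorticoid and fasting list 2 of 17 genes tested were called lower, Mt2 among them, beside 0.541% of all genes. The glucocorticoid target Fkbp5 was not called, at 4.11 and 6.20 RPKM, against 5.95 and 6.03 in sham hearts.

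Hsd11b1, the enzyme that regenerates active glucocorticoid, had 1.38 and 2.40 RPKM in unoperated hearts, against 6.39 and 6.79 in sham hearts (limma adjusted p = 0.0313). Ptgds, a prostaglandin D synthase, had 189.9 and 132 RPKM, against 359.7 and 375 in sham hearts (limma adjusted p = 0.0451). Gnmt, a glycine methyltransferase, had 2.36 and 2.02 RPKM, against 6.17 and 5.91 in sham hearts (limma adjusted p = 0.0127). No overlap between the groups was a condition for naming these 3 genes, and all 57 genes called lower showed it.

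Nr4a1, an immediate early nuclear receptor, had 2.30 and 2.78 RPKM in unoperated hearts, against 4.87 and 5.55 in sham hearts (limma adjusted p = 0.0371), the 1 gene called of 18 tested on its list. Dlat, a subunit of pyruvate dehydrogenase, had 27.0 and 23.4 RPKM, against 48.1 and 48.0 in sham hearts (limma adjusted p = 0.0291), the 1 called of 19 citric acid cycle genes tested. Over all genes tested 0.541% were called lower. The large falls also held the clone and predicted genes AC161805.1, Gm17549, Gm5921, AC161763.1, Gm12182, Gm12070 and Gm10012. AC161805.1, the largest of these, had 6.89 and 5.88 RPKM in unoperated hearts, against 38.9 and 26.0 in sham hearts (limma adjusted p = 0.00885). Its call held with any of the 4 libraries left out. The other 6, with Mt2, Hsd11b1, Ptgds, Gnmt, Nr4a1 and Dlat, lost their calls without either sham library, at adjusted p of 0.0739 to 0.313 without the first and 0.147 to 0.356 without the second.

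**Figure D4:**
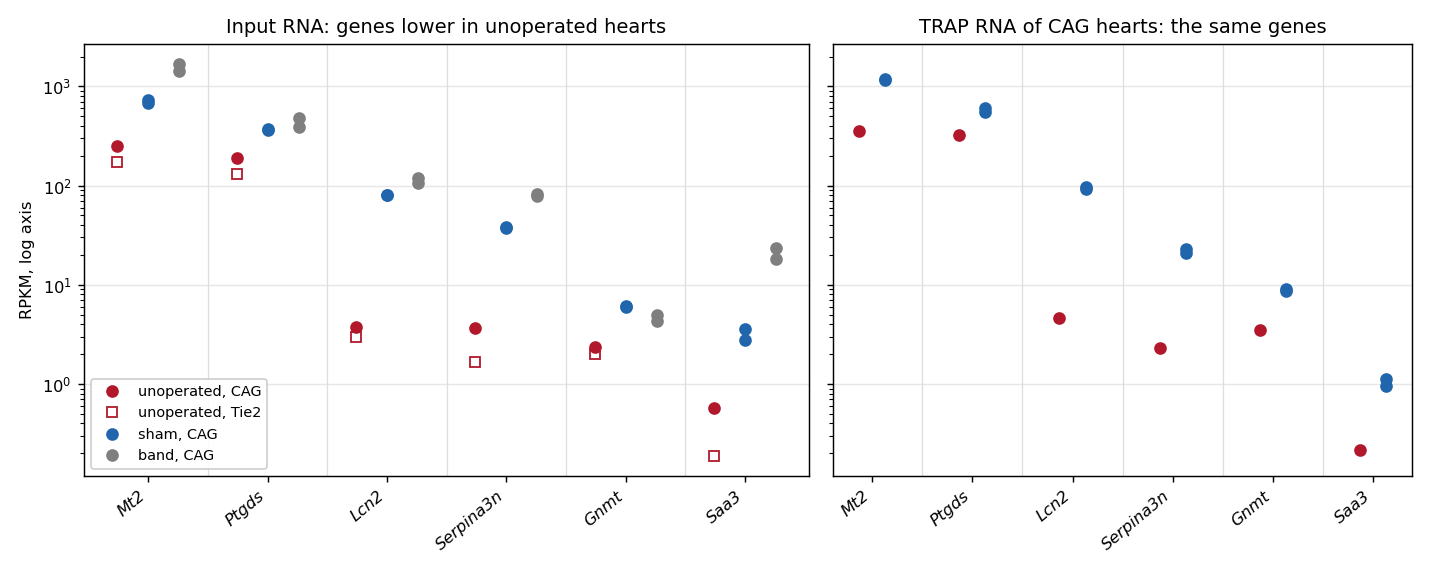
Levels of 6 genes called lower in unoperated hearts, in RPKM on a log axis with 1 point for each library, in input RNA on the left and TRAP RNA of CAG hearts on the right. Red marks unoperated hearts (filled circle CAG, open square Tie2), blue sham and grey band hearts. Lcn2 has 3.78 and 2.997 RPKM in unoperated and 81.0 and 80.2 in sham input RNA.

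Some lists held few or no calls but leaned in 1 direction. Of 25 fatty acid oxidation genes tested limma called 0 and gave 12 an unadjusted p under 0.05. In this list 20 genes lay below both sham hearts in both unoperated hearts, against 22.4% of all genes. Their median difference was -0.43, and -0.24 in the CAG heart and -0.46 in the Tie2 heart. Acadl, the long chain acyl-CoA dehydrogenase, was nearest to a call, with 232 and 226 RPKM in unoperated hearts, against 374 and 367 in sham hearts (limma adjusted p = 0.0522). Of 76 ribosomal protein genes tested 1 was called higher, a share near the 1.21% of all genes. It was Rpl23a, for which pseudogene copies make the count uncertain, with 11.6 and 13.5 RPKM in unoperated hearts, against 6.40 and 6.64 in sham hearts (limma adjusted p = 0.0278). The call of Rpl23a was lost without either sham library, at adjusted p of 0.302 and 0.265, and it was not called in TRAP RNA (limma adjusted p = 0.725). Among these genes 47 lay above both sham hearts in both unoperated hearts, against 30.6% of all genes, with a median of 0.32. Both medians kept their sign under quantile normalization, median of ratios scaling and the other rescalings tried. Of the 13 mitochondrially encoded genes limma called 0 and gave 2 an unadjusted p under 0.05, with a median difference of -0.01 in the CAG heart and -2.48 in the Tie2 heart.

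**Figure D5:**
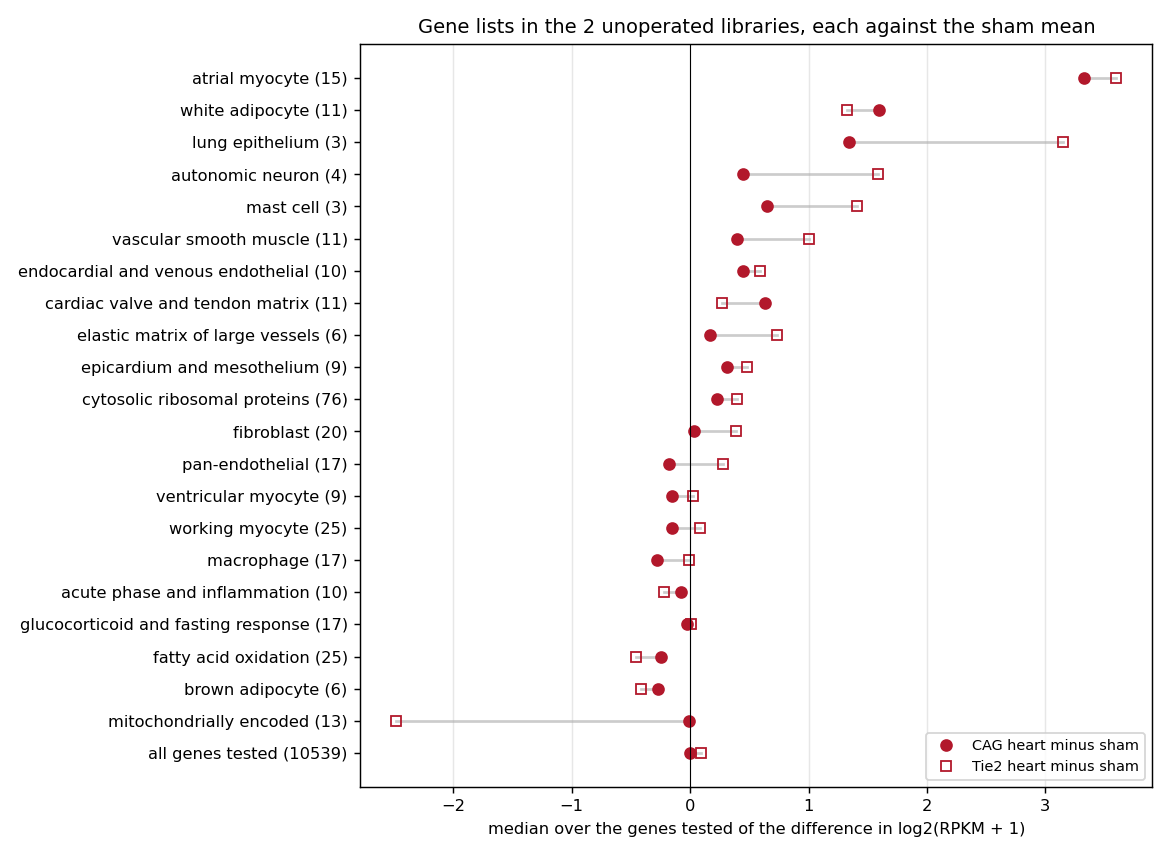
Median over each gene list of the difference from the sham mean in log2(RPKM + 1), given for the unoperated CAG heart (filled circle) and the Tie2 heart (open square), with the number of genes tested in brackets. The atrial list lies at 3.33 and 3.60 and the white adipocyte list at 1.59 and 1.33, whereas the mitochondrially encoded list lies at -0.01 in the CAG heart and -2.48 in the Tie2 heart.

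Band hearts gave a second comparison with operated hearts, which shares the unoperated libraries with the first. Here 250 genes (2.37%) were called higher and 179 (1.7%) lower in unoperated hearts, or 287 and 310 without the mitochondrially encoded genes. Of the 127 genes higher against sham hearts 101 were called higher against band hearts too, and of the 57 lower ones 28 were called lower. On the atrial list the 9 genes called against sham were called against band as well. Myl7 had 23.6 and 12.5 RPKM in band hearts and Sln 11.9 and 6.39, so both genes were also far lower in band hearts than in unoperated hearts. All 7 white adipocyte genes called against sham hearts were called against band hearts.

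TRAP RNA gave the same comparison in libraries that the rule did not use. TRAP RNA is bound to the tagged ribosomes, and the unoperated CAG heart gave 1 such library, set against 2 sham TRAP libraries of CAG hearts. The lone library was taken to vary like the other groups in a limma fit of all 12 libraries. Whether TRAP and input RNA came from the same hearts was not given. In this fit 173 genes (1.64%) were called higher and 296 (2.81%) lower in the unoperated heart. The median of all genes was -0.16 on the log2 scale, and scalings that brought it near 0 turned the balance round, to 220 higher and 95 lower with quantile normalization and to 393 and 116 with median of ratios scaling.

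The genes found in input RNA recurred in TRAP RNA. Of the 127 higher in unoperated input RNA, 93 were called higher in TRAP RNA, beside 1.64% of all genes, and 124 had the same sign. Of the 57 lower, 32 were called lower, beside 2.81% of all genes, and 53 had the same sign. Over all genes the median in TRAP RNA was -0.16, so a negative sign was the more common one there. Myl7 had 4549 RPKM in unoperated TRAP RNA, against 14.7 and 13.3 in sham TRAP RNA (8.24 on the log2 scale, limma adjusted p = 0.000151). Sln had 2971 RPKM, against 6.58 and 6.36 in sham TRAP RNA (8.64, limma adjusted p = 6.74e-05). Nppa had 3973 RPKM, against 182 and 167 in sham TRAP RNA (4.50, limma adjusted p = 0.00602). All 9 atrial genes and all 7 white adipocyte genes called in input RNA were called higher in TRAP RNA.

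On the lower side, Lcn2 had 4.58 RPKM in unoperated TRAP RNA, against 95.9 and 92.8 in sham TRAP RNA (-4.10, limma adjusted p = 1.78e-05). Serpina3n had 2.28 RPKM, against 23.0 and 21.0 in sham TRAP RNA (-2.81, limma adjusted p = 0.0018). Saa3 was not called there, at 0.218 RPKM, against 1.12 and 0.946 (limma adjusted p = 0.0913). The clone gene AC161805.1 was near 0 in all TRAP libraries, at 0.297 RPKM in the unoperated heart, against 0 and 0.674 in sham hearts, so it could not be compared there. Scgb1a1 had 8.26 RPKM in the unoperated CAG TRAP library, against 0.0593 and 0.0502 in sham TRAP RNA. Of 25 fatty acid oxidation genes 5 were called lower in TRAP RNA, beside 2.81% of all genes, with a median of -0.58 beside the -0.16 of all genes. With quantile normalization 4 of the 25 were called lower, and with median of ratios scaling 2. The 5 were Acadm, Acadl, Acadvl, Hadhb and Etfa, all of the mitochondrial beta-oxidation and electron transfer steps. Leaving out sham TRAP library 1 left 39 genes called higher and 13 lower, and leaving out library 2 left 35 and 7.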

How the data were processed

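Poly(A) RNA-seq reads were processed by the authors with CASAVA 1.8.2, TopHat 1.4 and HTSeq 0.5.3 on the NCBIM37 build, per the submitters' processing notes. The authors deposited RPKM values, which are read counts divided by transcript length and library size, in 1 table of 12 libraries. All 185869 values checked were whole reads within 0.02 reads, which gave the totals per library. Intervals hold counting error alone.

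A limma fit was then made to log2(RPKM + 1), with limma 3.58.1 in R 4.3.3 (empirical Bayes with a trend). The input fit held 6 libraries and the TRAP fit 12. The fit was tested on simulated data. Chromosomes came from RefSeq, by symbol for 9514 genes and by synonym for 999. The tests fixed for counts were replaced by this one because the values are RPKM. Alternatives covered the libraries fitted, pseudocount, filter, scaling and each library left out.

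Named genes were the 5 markers, the 15 largest called rises and the 15 largest called falls (mean of at least 5 RPKM in the higher group, no overlap), and up to 4 called genes of each list. In lists with no called gene the first 4 measured could be named. Further genes were named after their values were seen. The members and lists were chosen with earlier results of these data known. Samples of the series with no column in the table were not analysed here. Results of some genes are not reported here.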

Additional observations from a re-analysis of the deposited data

Results flagged for a closer look

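The TRAP library of Tie2 hearts without surgery entered no comparison of its own, and it held the atrial markers above the sham TRAP libraries of CAG hearts. Myl7 stood at 309 RPKM there, against at most 14.7 in sham TRAP RNA. Myl4 stood at 29.4 RPKM, against at most 2.54, and Sln at 268 RPKM, against at most 6.58. Bmp10 stood at 1.47 RPKM, against at most 0.0545, and Nppa at 242 RPKM, against at most 182. All 5 were far lower than in Tie2 input RNA, where Myl7 had 5867, Myl4 383, Sln 2135, Bmp10 15.1 and Nppa 3374 RPKM. The working myocyte list was far lower too, with a sum of 4535 RPKM in Tie2 TRAP RNA and 77457 in Tie2 input RNA. Which cells these messages came from was not tested.

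Among lists with 3 or more genes tested, 4 had median differences from sham input RNA of opposite sign in the unoperated hearts of the 2 lines, with both medians more than 0.1 from 0 and 1 library for each line. Other lists had opposite signs with a median nearer 0. The pan-endothelial list lay at 0.278 in the Tie2 heart and -0.176 in the CAG heart, and the arterial endothelial list at 0.357 and -0.144. The list of genes reported higher under pressure overload lay at 0.214 in the Tie2 heart and -0.111 in the CAG heart. The heat shock and chaperone list lay at -0.171 in the Tie2 heart and 0.159 in the CAG heart. The difference between the lines was not tested.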

How the results depend on the processing

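Against sham input RNA, genes called higher and lower numbered 30 and 2 with only the 4 libraries of the comparison, 299 and 121 with all 12 libraries, 1878 and 1331 with a mean for each unoperated line, and 51 and 5 without the level filter. The lower calls numbered 121 with quantile normalization, 120 when rescaled without the most abundant genes, 107 with median of ratios scaling and 156 without mitochondrially encoded genes. Leaving out single libraries gave 20 to 2550 higher and 3 to 1504 lower. Against band input RNA the same library and filter settings gave 43 and 18, 483 and 285, 2099 and 1440, and 110 and 93. The lower calls there numbered 272 with median of ratios scaling and 310 without mitochondrially encoded genes, and single libraries left out gave 23 to 2685 higher and 5 to 1591 lower. In TRAP RNA, a fit of the 5 CAG libraries gave 43 higher and 8 lower, quantile normalization 95 lower, and median of ratios scaling 393 higher and 116 lower. Single sham TRAP libraries left out gave 35 to 39 higher and 7 to 13 lower. The cause of these changes was not tested. A lone library was taken to vary like the other groups. Of the 46 named genes none changed direction, while 26 lost the call with only the 4 libraries of the comparison, 27 without the level filter, 28 without sham library 1 and 29 without sham library 2. Rspo1 (limma adjusted p = 0.0649 with a pseudocount of 0.1), Saa3 (0.0687 with a pseudocount of 5) and Ptgds (0.0502 with median of ratios scaling) also lost it. Count tests planned as alternatives were not run, because the deposited values are RPKM. No paired analysis was possible because the unoperated columns carry no replicate number.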

Other observations

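Single called genes outside the lists are given here. They were picked after their values were seen, from no fixed list. Fasn, the fatty acid synthase, had 6.54 and 5.52 RPKM in unoperated CAG and Tie2 hearts, against 1.33 and 1.34 in sham hearts (limma adjusted p = 0.00356). Scd1, a fatty acid desaturase, had 10.8 and 5.09 RPKM, against 1.04 and 0.976 in sham hearts (limma adjusted p = 0.0310). The tubulin gene Tubb4b was called higher, with 107 and 114 RPKM, against 46.7 and 44.4 in sham hearts (limma adjusted p = 0.00499), as was Tuba1b, with 49.7 and 43.9 RPKM, against 20.6 and 19.8 (limma adjusted p = 0.0102). Neither tubulin gene was called against band hearts, where Tuba1b had 61.9 and 66.9 RPKM.

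Genes called lower included Dsp and Myom1. Dsp, the desmosome protein desmoplakin, had 25.6 and 24.8 RPKM in unoperated hearts, against 45.7 and 40.8 in sham hearts (limma adjusted p = 0.0331). Myom1, a protein of the sarcomere's M-band, had 34.4 and 39.9 RPKM, against 71.6 and 69.4 (limma adjusted p = 0.0311). The calls of Fasn, Scd1, Tubb4b, Tuba1b, Dsp and Myom1 were lost without either sham library.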
